A study of Mus musculus with 14 samples.

Results

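The BMP pathway and Id genes examined here are 10 genes taken by symbol from the table of FPKM values: the ligand Bmp4, the secreted modulator Kcp, the receptors Bmpr1a and Bmpr2, the inhibitory Smad6, the Id genes Id1, Id2, Id3 and Id4, and the homeobox gene Msx2. They are 10 of 41204 gene identifiers in that table, and all 10 exceeded 0.2 FPKM on average over the samples, as did 15430 genes. FPKM is the number of fragments per kilobase of transcript, scaled to the fragments mapped in the library, so levels of genes of different length can be set side by side. Poly(A) RNA of mouse embryonic stem cells (ESCs) labelled C57BL/6(F) x 129/sv(M) was sequenced in 8 samples, 2 of each genotype (wild type and Trincr1-/-) in each medium (2i + LIF and PD + LIF). Both media hold N2B27, 1 μM of the MEK inhibitor PD0325901 and 1000 units/ml of LIF. The 2i + LIF medium also holds 3 μM of the GSK3 inhibitor CHIR99021, and cells for PD + LIF spent 24 h in 2i + LIF and then 4 days without CHIR99021. Trincr1 is the long noncoding RNA listed as Gm2694, from which a pair of CRISPR guides was used to remove exons in the Trincr1-/- ESCs, and the sources do not state how many clones were sequenced. The 2 samples of a group are labelled as replicates, with nothing to say that they came from separate lines, so p-values measure the spread between such samples.

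BMP ligands bind a complex of type I and type II receptors, which phosphorylates SMAD1 and SMAD5; these enter the nucleus with SMAD4 and raise transcription of target genes. The Id genes are classical targets in ESCs. ID proteins have a helix-loop-helix domain but no basic region, so they bind E proteins and keep them off DNA, and BMP acting through Id genes together with LIF is known to hold back neural differentiation of mouse ESCs.

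The labels were checked first. Trincr1 was at 5.70 and 9.45 FPKM in wild type and 0.0754 and 0 FPKM in Trincr1-/- ESCs in 2i + LIF, and at 6.18 and 6.56 against 1.38 and 0.746 FPKM in PD + LIF. Per sample, FPKM summed to between 497115 and 519651, and 1 fragment on 1000 bases was worth 0.0845 to 0.115 FPKM as estimated from steps between low values. All 10 ESC markers were expressed, with a summed level of 3843 to 3956 FPKM in wild type in 2i + LIF, 3673 to 3724 in Trincr1-/- in 2i + LIF, 2940 to 3260 in wild type in PD + LIF and 1940 to 2161 in Trincr1-/- in PD + LIF.

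Over the 8 samples the highest mean levels among the 10 genes were those of Id3 (17.8 FPKM) and Bmpr1a (15.1 FPKM), and the lowest was that of Msx2 (0.816 FPKM). Estimated fragments per sample were 747 to 1114 for Bmpr1a, 102 to 319 for Id3, 36.7 to 276 for Id1 and 34.4 to 182 for Bmp4. They were 6.31 to 53.2 for Msx2, 16.2 to 188 for Kcp and 4.09 to 122 for Id2, so low values of these 3 genes rest on few fragments.

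**Figure D1:**
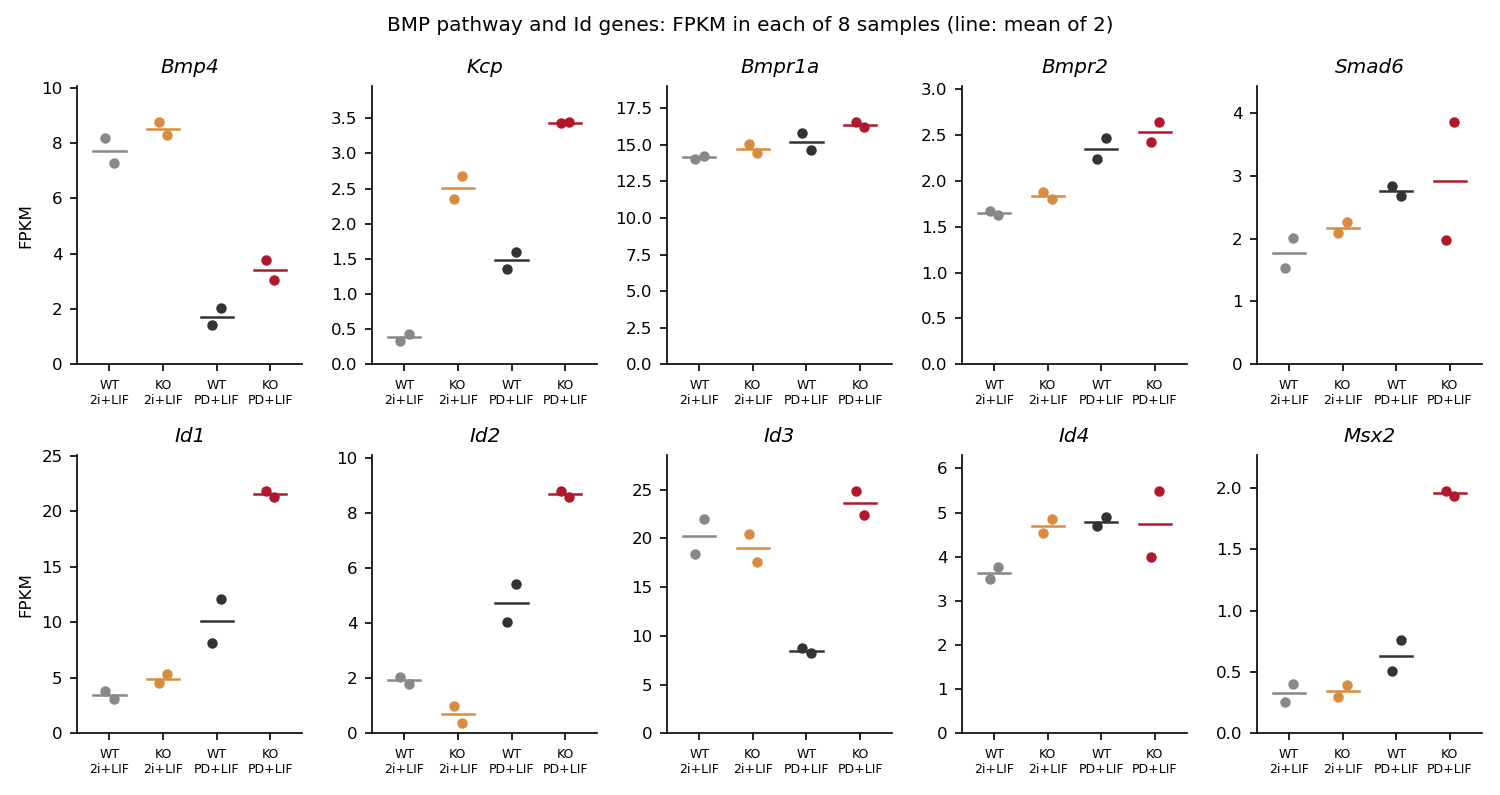
FPKM (y axis, from 0, its own scale in each panel) of the 10 genes in wild-type (WT) and Trincr1-/- (KO) ESCs in both media; points are samples and lines are means of 2. Id1, Id2, Id3, Msx2, Bmp4, Kcp and, by a small margin, Bmpr1a were higher in both Trincr1-/- samples than in both wild-type samples in PD + LIF. In 2i + LIF Id3 and Msx2 overlapped between genotypes.

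The first comparison asked what loss of Trincr1 changed in PD + LIF, the medium in which the MEK inhibitor and LIF act without the GSK3 inhibitor. Of the 10 genes, 6 rose in Trincr1-/- ESCs, 0 fell and 4 did not pass the test, at a Benjamini-Hochberg adjusted p under 0.05 in limma on log2(FPKM + 1). Among all 15430 genes, 12.1% were called in this comparison, 6.29% as higher and 5.77% as lower. The genes that rose were the ligand Bmp4, the modulator Kcp, 3 of 4 Id genes and Msx2. The receptors, Smad6 and Id4 did not pass. Samples of the genotypes did not overlap for 7 of 10 genes, as against 57.7% of all genes, and the median log2 fold change was 0.74 over the 10 genes and 0.01 over all genes. The 10 genes, and the lists of other pathway genes used below, were chosen with earlier results of these data known. Such shares therefore describe the chosen genes and are not a test of them as a set.

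Bmp4, a secreted ligand of the BMP family, was at 1.41 and 2.04 FPKM in wild type and at 3.79 and 3.06 FPKM in Trincr1-/- ESCs in PD + LIF. Both Trincr1-/- samples were above both wild-type samples, by 1.98-fold in the means (1.72 ± 0.448 and 3.42 ± 0.516 FPKM, SD, n = 2). The log2 fold change of Bmp4 was 0.70 (SE 0.15, limma adjusted p = 0.0265). This call did not hold without wild-type replicate 1 (0.53), Trincr1-/- replicate 1 (0.58) or Trincr1-/- replicate 2 (0.82) in PD + LIF, with adjusted p from 0.0198 to 0.148 over 16 alternatives.

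Kcp, which codes for a secreted protein with chordin-like repeats that enhances BMP signalling, was at 1.36 and 1.60 FPKM in wild type and at 3.43 and 3.44 FPKM in Trincr1-/- ESCs in PD + LIF. The Trincr1-/- samples were 2.32-fold higher in the means, with a log2 fold change of 0.84 (SE 0.12, limma adjusted p = 0.00816). The call did not hold without wild-type replicate 1 (0.77) or Trincr1-/- replicate 1 (0.84) in PD + LIF, with adjusted p from 0.00686 to 0.0601 over 16 alternatives.

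Neither receptor passed the test in PD + LIF. Bmpr1a, a type I receptor, was at 15.8 and 14.6 FPKM in wild type and at 16.5 and 16.2 FPKM in Trincr1-/- ESCs, a log2 fold change of 0.10 (SE 0.07, limma adjusted p = 0.370). Bmpr2, a type II receptor, was at 2.23 and 2.47 FPKM in wild type and at 2.42 and 2.64 FPKM in Trincr1-/- ESCs, which overlapped (log2 fold change 0.08, SE 0.11, limma adjusted p = 0.705). Smad6, an inhibitory SMAD that is itself a target of the pathway, spread widely between the Trincr1-/- samples, at 1.97 and 3.85 FPKM, around the wild-type values of 2.84 and 2.68 FPKM. Its log2 fold change was 0.01 (SE 0.22, limma adjusted p = 0.982), and it ran from -0.34 to 0.37 with a sample left out.

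Id3 had the lowest adjusted p of the 10 genes in PD + LIF. It was at 8.75 and 8.22 FPKM in wild type and at 24.8 and 22.4 FPKM in Trincr1-/- ESCs, so the genotypes were far apart against the spread within each (8.48 ± 0.375 and 23.6 ± 1.74 FPKM, SD, n = 2). The means differed 2.78-fold, with a log2 fold change of 1.37 (SE 0.11, limma adjusted p = 0.00203), and this call held under all 16 alternatives tried. Id1 was at 8.11 and 12.1 FPKM in wild type and at 21.8 and 21.3 FPKM in Trincr1-/- ESCs, 2.13-fold higher in the means. Its log2 fold change was 1.05 (SE 0.17, limma adjusted p = 0.0128). Without wild-type replicate 1 (0.78), Trincr1-/- replicate 1 (1.03) or Trincr1-/- replicate 2 (1.06) in PD + LIF the Id1 call did not hold, with adjusted p from 0.00895 to 0.0932 over 16 alternatives.

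Id2 passed the threshold narrowly. It was at 4.06 and 5.41 FPKM in wild type and at 8.80 and 8.59 FPKM in Trincr1-/- ESCs in PD + LIF, with both Trincr1-/- samples above both wild-type samples and 1.84-fold between the means. The log2 fold change was 0.77 (SE 0.20, limma adjusted p = 0.0498), and only 5 of 16 alternatives kept the call, with adjusted p from 0.0316 to 0.219. It was lost without either wild-type or either Trincr1-/- sample in PD + LIF (0.60 to 0.94) and without either wild-type sample in 2i + LIF, which left the fold change at 0.77. Id4 was at 4.69 and 4.89 FPKM in wild type and at 4.00 and 5.48 FPKM in Trincr1-/- ESCs, which overlapped (log2 fold change -0.02, SE 0.14, limma adjusted p = 0.941).

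The summed level of the 4 Id genes was 25.6 and 30.6 FPKM in wild type and 59.4 and 57.8 FPKM in Trincr1-/- ESCs in PD + LIF. In 2i + LIF it lay between 27.7 and 30.7 FPKM in all 4 samples of both genotypes, so the wild-type sums overlapped between media while their makeup differed. Id3 gave 62.5% to 71.7% of the sum in the samples in 2i + LIF, 34.2% and 26.8% in wild type in PD + LIF and 41.8% and 38.7% in Trincr1-/- ESCs in PD + LIF. Id1 gave 10.2% to 18.9% in 2i + LIF and 31.7% to 39.5% in PD + LIF, and Id2 gave 1.32% to 7.35% and 14.8% to 17.7%. Id4 gave 6.74% to 18.3% over all samples.

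**Figure D2:**
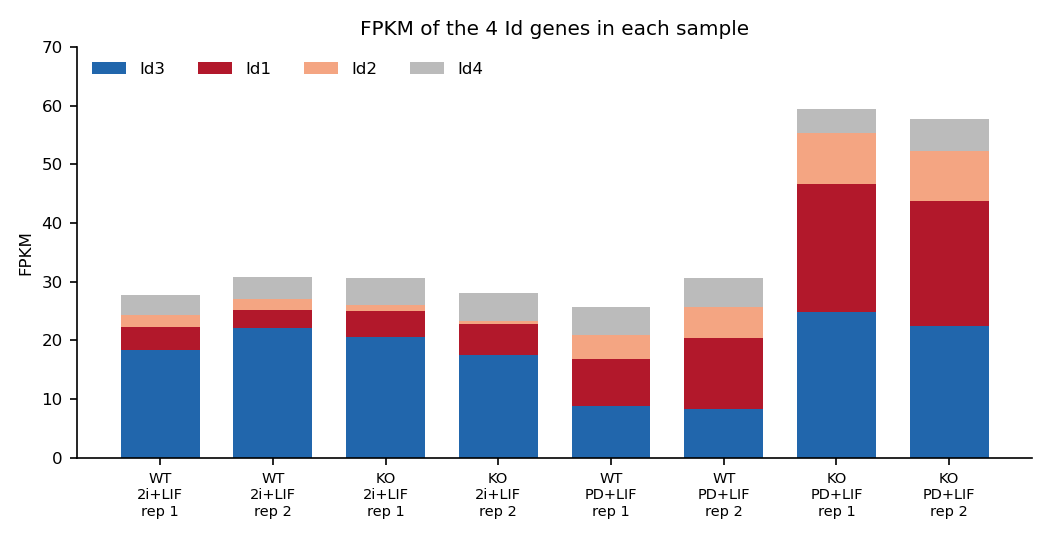
Stacked bars of the FPKM (y axis, from 0) of Id3, Id1, Id2 and Id4 in each of the 8 samples, by genotype, medium and replicate. The 2 Trincr1-/- samples in PD + LIF reach 59.4 and 57.8 FPKM and the other 6 samples stay between 25.6 and 30.7 FPKM, with the Id3 block taking most of the bar in 2i + LIF.

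Promoter windows of 3 Id genes and Msx2 are shown here. Of these genes, Id2, Id3 and Msx2 rose in Trincr1-/- ESCs in PD + LIF and Id4 did not pass. The windows are the 250 bases before a transcription start from RefSeq on build GRCm38.p6, written 5′ to 3′ on the strand of the gene. By the gene coordinates given further below, the windows of Id3 and Msx2, and those of Bmpr1a and Bmpr2, lie inside the gene. The window of Id4 stops short of the listed gene start, and that of Id2 borders it. Of the 10 genes, 9 had an entry. Id1, which also rose in PD + LIF, had none and was not searched. Capitals mark GGCGCC, a GC-rich element described for SMAD1 and SMAD5, which was searched on both strands together with the SMAD palindrome GTCTAGAC and the TCF/LEF element CTTTGAT. The window of Id2 is chr12:25096093-25096342 (minus strand), Id3 at chr4:136143572-136143821 (plus strand), Id4 at chr13:48260866-48261115 (plus strand) and Msx2 at chr13:53472781-53473030 (minus strand).
Id2: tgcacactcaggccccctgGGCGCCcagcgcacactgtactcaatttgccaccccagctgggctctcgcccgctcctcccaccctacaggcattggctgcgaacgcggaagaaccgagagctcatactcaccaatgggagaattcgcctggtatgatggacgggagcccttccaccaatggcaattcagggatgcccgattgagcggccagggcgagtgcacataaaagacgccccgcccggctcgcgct
Id3: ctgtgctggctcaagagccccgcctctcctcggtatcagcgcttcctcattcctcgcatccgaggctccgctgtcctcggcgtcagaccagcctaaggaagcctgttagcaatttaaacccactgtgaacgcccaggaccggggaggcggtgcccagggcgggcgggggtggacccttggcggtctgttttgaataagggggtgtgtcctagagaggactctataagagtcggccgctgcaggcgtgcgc
Id4: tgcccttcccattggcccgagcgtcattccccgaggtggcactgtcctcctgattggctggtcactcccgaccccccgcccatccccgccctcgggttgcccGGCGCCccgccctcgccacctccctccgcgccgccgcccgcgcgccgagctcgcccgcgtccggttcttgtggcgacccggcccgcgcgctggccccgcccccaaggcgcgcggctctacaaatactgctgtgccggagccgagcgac
Msx2: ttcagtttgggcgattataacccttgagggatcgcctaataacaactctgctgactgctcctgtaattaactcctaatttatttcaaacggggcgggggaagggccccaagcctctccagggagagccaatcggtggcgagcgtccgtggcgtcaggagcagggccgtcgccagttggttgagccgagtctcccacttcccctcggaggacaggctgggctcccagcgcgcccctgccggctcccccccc
GGCGCC occurred once each in the windows of Bmpr1a, Bmpr2, Id2 and Id4, that is in 4 of 9, and in 9.59% of 32851 promoters of the same length. It was thus present in the window of one Id gene that rose in PD + LIF and of one that did not pass. These letters were not in the windows of Id3 and Msx2. Those windows lie inside the genes as listed, so bases before their listed starts were not searched. GTCTAGAC, held by 0.167% of all promoters, and CTTTGAT, held by 3.21%, occurred in 0 of 9. The 9 windows had a GC content of 61.6% to 78.8%, against a median of 52.4% over all promoters. A match of letters is not a bound site.

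Msx2, a homeobox transcription factor and textbook BMP target, had the lowest mean of the 10 genes in each of the 4 groups. In PD + LIF it was at 0.509 and 0.760 FPKM in wild type and at 1.97 and 1.94 FPKM in Trincr1-/- ESCs. The means differed 3.09-fold, the largest ratio among the 10 genes in this comparison, with a log2 fold change of 0.86 (SE 0.13, limma adjusted p = 0.00995). The 1 FPKM added before taking logs makes the log2 value of so low a gene smaller than its ratio. The call did not hold without wild-type replicate 1 (0.75) or Trincr1-/- replicate 1 (0.85) in PD + LIF, with adjusted p from 0.00989 to 0.0641 over 15 alternatives.

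The number of the 10 genes that passed in PD + LIF changed with the libraries fitted, as did the number among all genes. With wild-type replicate 1 or Trincr1-/- replicate 1 left out, only Id3 passed, and with Trincr1-/- replicate 2 left out Id3, Msx2 and Kcp passed. The number of all genes called was 1861 with all samples 470, 335 and 764 in these fits, and 709 without wild-type replicate 2 in PD + LIF, where the 5 members other than Id2 still passed. Markers of other cell types moved with the genotype in PD + LIF as well. Of 10 ESC markers, 7 fell; of 10 trophoblast markers, 4 rose and 1 fell, with a summed level of 142 to 155 FPKM in wild type and 273 to 284 FPKM in Trincr1-/- ESCs and the defining marker Elf5 at a mean of 0.2 FPKM or less. Primitive endoderm markers summed to 144 to 150 and 184 to 188 FPKM (3 of 10 higher, with Gata6, Sox17 and Cubn at 0.2 FPKM or less), and neural markers to 39.1 to 42.0 and 50.1 to 50.7 FPKM (2 of 10 higher, with Neurog2 at 0.2 FPKM or less). Primitive streak and mesoderm markers summed to 5.56 to 5.59 and 5.54 to 5.56 FPKM (0 of 10 called, Wnt3, Mixl1 and Mesp1 at 0.2 FPKM or less), and feeder fibroblast markers to 4.69 to 5.20 and 6.34 to 7.30 FPKM (1 of 10 higher, with Twist2, Dcn, Col3a1, Postn and Lum at 0.2 FPKM or less). Eomes is in both the trophoblast and the primitive streak lists, and Gata3, Mesp1 and Olig2 are also in the lists of pathway genes. The part of these cell types in the Id and BMP values was not tested. In such bulk samples a change in the number of cells of a type and a change in RNA per cell cannot be told apart.

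The second comparison asked the same in 2i + LIF. Here 1 of 10 genes rose in Trincr1-/- ESCs, 0 fell and 9 did not pass, against 1.21% of all genes called in either direction and 0.350% called as higher. The gene that rose was Kcp, at 0.333 and 0.434 FPKM in wild type and at 2.35 and 2.68 FPKM in Trincr1-/- ESCs, 6.55-fold higher in the means. Its log2 fold change was 1.34 (SE 0.12, limma adjusted p = 0.00498), and it was not called without Trincr1-/- replicate 2 in 2i + LIF (1.28), with adjusted p from 0.00416 to 0.119 over 16 alternatives. In that fit 0 of 10 genes passed limma at the adjusted threshold and 2 had an unadjusted p under 0.05.

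The Id genes did not pass in 2i + LIF. Id3 was at 18.4 and 22.0 FPKM in wild type and at 20.5 and 17.6 FPKM in Trincr1-/- ESCs, which overlapped (log2 fold change -0.08, limma adjusted p = 0.820). Id2 was at 2.04 and 1.81 FPKM in wild type and at 1.01 and 0.370 FPKM in Trincr1-/- ESCs, where the latter rest on an estimated 12.9 and 4.09 fragments. Both Trincr1-/- values of Id2 were below both wild-type values, the opposite order to PD + LIF, with a log2 fold change of -0.81 (SE 0.20, limma adjusted p = 0.129). It was -0.54 without Trincr1-/- replicate 2 in that medium and -1.48 with a pseudocount of 0.1, and it passed under 0 of 16 alternatives, with adjusted p from 0.0820 to 0.361. Id1 was at 3.80 and 3.13 against 4.56 and 5.31 FPKM (0.41, limma adjusted p = 0.338), and Id4 at 3.49 and 3.77 against 4.54 and 4.86 FPKM (0.30, limma adjusted p = 0.381). Samples of the genotypes did not overlap for 8 of 10 genes, as against 44.4% of all genes, and the median log2 fold change was 0.11 over the 10 genes and 0.00 over all genes. Bmp4 was at 8.17 and 7.27 against 8.75 and 8.28 FPKM, and Msx2 at 0.258 and 0.405 against 0.293 and 0.392 FPKM, with limma adjusted p of 0.774 and 0.993.

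**Figure D3:**
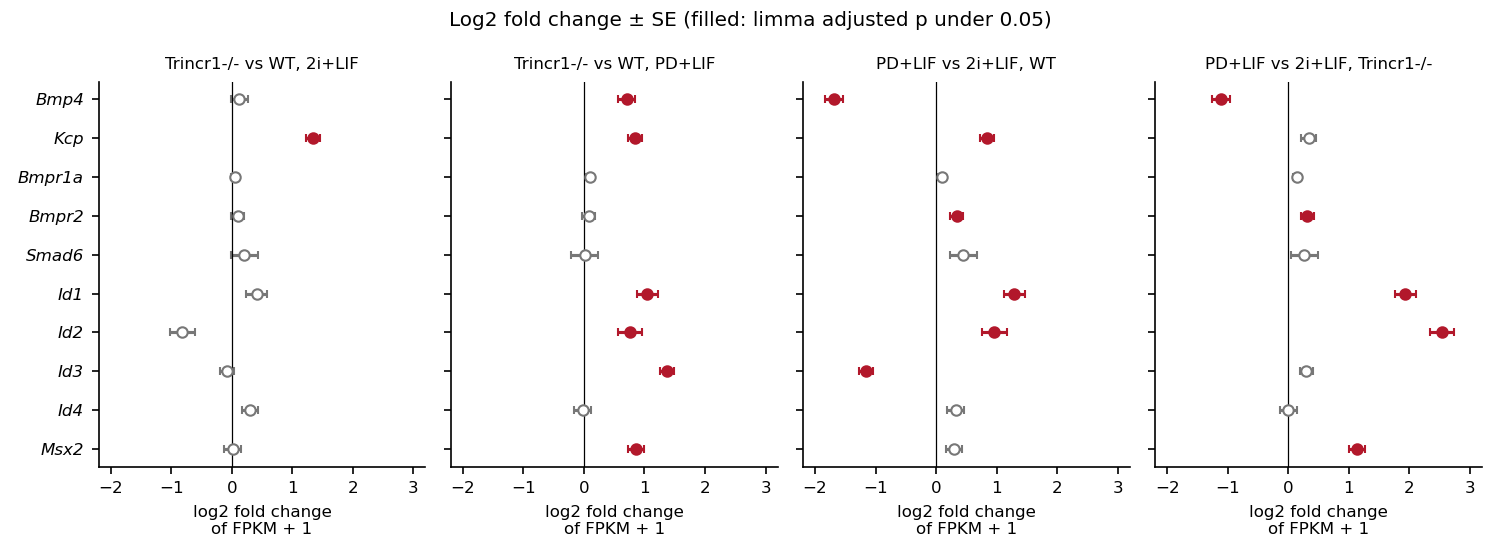
Log2 fold change of FPKM + 1 (x axis) ± SE of the 10 genes in the comparisons of genotype in each medium and of medium in each genotype; filled red points have a limma adjusted p under 0.05. Filled points number 1 in 2i + LIF (Kcp) and 6 in PD + LIF, all to the right of 0, whereas Bmp4 is far to the left of 0 in both comparisons of medium.

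The genotype effects were set against each other between the media with an interaction term. The difference passed for 2 of 10 genes, Id2 and Id3, against 1.81% of all genes in either direction and 0.992% with a larger effect in PD + LIF. For Id3 the genotype effect was larger by 1.46 on the log2 scale in PD + LIF (SE 0.16, limma adjusted p = 0.0200), and for Id2 by 1.58 (SE 0.28, limma adjusted p = 0.0456). Leaving out any 1 of the 8 samples took away the Id2 call (1.31 to 1.86), with adjusted p from 0.0344 to 0.158 over 15 alternatives. The Id3 call was lost in 6 of these 8 fits: without wild-type replicate 2 (1.33) or Trincr1-/- replicate 2 (1.35) in 2i + LIF, or without wild-type replicate 1 (1.50) or 2 (1.42) or Trincr1-/- replicate 1 (1.38) or 2 (1.53) in PD + LIF, with adjusted p from 0.0128 to 0.102 over 15 alternatives. The differences for Msx2 (0.85, limma adjusted p = 0.0754), Id1 (0.63, limma adjusted p = 0.222), Bmp4 (0.58, limma adjusted p = 0.197) and Kcp (-0.50, limma adjusted p = 0.175) did not pass, so for these genes an effect that differs between media was not shown.

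The remaining comparisons followed the change of medium within each genotype. In wild-type ESCs, 6 of 10 genes passed, 4 higher and 2 lower in PD + LIF, in a comparison in which 52.2% of all genes were called (30.9% higher and 21.3% lower). In Trincr1-/- ESCs, 5 of 10 passed, 4 higher and 1 lower, with 50.0% of all genes called (29.6% higher and 20.3% lower). These shares among the 10 genes are near the background. Samples of the media did not overlap for 10 of 10 genes in wild type (76.4% of all genes) and for 8 of 10 in Trincr1-/- ESCs (74.5% of all genes). With quantile normalization, 49.1% of the calls were higher in place of 59.2% in wild type, and 48.2% in place of 59.3% in Trincr1-/- ESCs.

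Bmp4 fell in PD + LIF in both genotypes. In wild type it went from 7.72 ± 0.634 to 1.72 ± 0.448 FPKM (SD, n = 2), 4.48-fold lower (log2 fold change -1.69, SE 0.15, limma adjusted p = 0.000101). In Trincr1-/- ESCs it went from 8.52 ± 0.335 to 3.42 ± 0.516 FPKM, 2.49-fold lower (log2 fold change -1.11, SE 0.15, limma adjusted p = 0.000702). Both calls held under all 16 alternatives.

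The Id genes did not move together with the medium. Id3 fell 2.38-fold in wild type, from 20.2 ± 2.55 to 8.48 ± 0.375 FPKM (log2 fold change -1.16, limma adjusted p = 0.000165). In Trincr1-/- ESCs it was at 19.0 ± 2.08 FPKM in 2i + LIF and 23.6 ± 1.74 FPKM in PD + LIF, which did not pass (0.30, limma adjusted p = 0.0583), while without either wild-type sample in 2i + LIF (0.30) or without Trincr1-/- replicate 1 in 2i + LIF (0.41) it did, with adjusted p from 0.0475 to 0.273 over 16 alternatives. Id1 rose in both genotypes, from 3.47 ± 0.478 to 10.1 ± 2.82 FPKM in wild type (1.29, limma adjusted p = 0.000719) and from 4.93 ± 0.530 to 21.5 ± 0.334 FPKM in Trincr1-/- ESCs (1.93, limma adjusted p = 0.000115). Id2 rose 2.46-fold in wild type (log2 fold change 0.96, limma adjusted p = 0.00548) and 12.6-fold in Trincr1-/- ESCs (2.55, limma adjusted p = 6.05e-05), the latter from a level of few fragments. Id4 did not pass in wild type (0.32, limma adjusted p = 0.0864) or in Trincr1-/- ESCs (-0.00, limma adjusted p = 1). In wild type it passed without either Trincr1-/- sample in PD + LIF, at the same 0.32, and with quantile normalization the value was 0.09, with adjusted p from 0.0398 to 0.640 over 16 alternatives.

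Among the other genes, Kcp rose 3.86-fold in wild type (log2 fold change 0.84, limma adjusted p = 0.000962), and in Trincr1-/- ESCs, where it was already at 2.51 ± 0.227 FPKM in 2i + LIF, it did not pass (0.34, limma adjusted p = 0.0503). The latter passed without a variance trend (0.34) and came to 0.05 with quantile normalization, with adjusted p from 0.0192 to 0.767 over 16 alternatives. Msx2 rose 5.72-fold in Trincr1-/- ESCs (1.14, limma adjusted p = 0.000384) and did not pass in wild type (0.29, limma adjusted p = 0.103), where quantile normalization gave 0.11. Bmpr2 rose 1.42-fold in wild type (0.34, limma adjusted p = 0.0353) and 1.38-fold in Trincr1-/- ESCs (0.31, limma adjusted p = 0.0477). With quantile normalization these differences of Bmpr2 came to 0.06 and 0.01 and did not pass. The wild-type call was also lost without any 1 of the 4 wild-type samples (0.29 to 0.39), and the Trincr1-/- call without any 1 of the 8 samples (0.27 to 0.36), with adjusted p from 0.00877 to 0.690 and from 0.0123 to 0.962 over 16 alternatives each. Bmpr1a did not pass in either genotype (0.10 and 0.14). Smad6 did not pass in wild type (0.45) or in Trincr1-/- ESCs (0.26), but did in wild type without either Trincr1-/- sample in PD + LIF (0.45) and in Trincr1-/- ESCs without replicate 1 in PD + LIF (0.61), whereas without replicate 2 its value there turned to -0.09, with adjusted p from 0.0324 to 0.604 and from 0.0285 to 0.924 over 16 alternatives each.

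Other genes of the pathway were drawn from lists of ligands, receptors, SMADs, inhibitors, modulators, targets and E proteins, which gave 70 genes beyond the 10, of which 47 had a mean above 0.2 FPKM. In PD + LIF, 10 of the 47 rose in Trincr1-/- ESCs, 0 fell and 37 did not pass, with a median log2 fold change of 0.11. Among all genes, 6.29% were called as higher and 5.77% as lower, with a median of 0.01. Rises were found for 2 of 6 ligands (Bmp5 and Bmp8b), 1 of 3 SMADs (Smad5), 4 of 11 extracellular modulators (Fst, Fstl1, Nbl1 and Bmp1) and 3 of 8 targets (Msx1, Dusp9 and Gata2). They were found for 0 of 8 receptors and co-receptors, 0 of 9 intracellular inhibitors and 0 of 4 E proteins and other partners of ID proteins. Bmp5, Bmp8b, Smad5, Fst, Nbl1 and Bmp1 are named here after their values were seen. Bmp5 and Bmp8b exceeded 0.2 FPKM on average only through Trincr1-/- ESCs in PD + LIF (means 1.47 and 1.26 FPKM). In wild type in PD + LIF their means were 0.346 and 0.349 FPKM. Their place among the 47 thus depends on the group in which they are high, and their calls add no support to the counts above.

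Msx1, a homeobox factor related to Msx2, was at 0.832 and 0.996 FPKM in wild type and at 4.07 and 3.18 FPKM in Trincr1-/- ESCs in PD + LIF (log2 fold change 1.27, SE 0.18, limma adjusted p = 0.00824). Dusp9, a phosphatase that acts on ERK and is raised by BMP in ESCs, was at 13.5 and 13.1 against 29.1 and 30.3 FPKM (1.10, SE 0.07, limma adjusted p = 0.00103). Gata2, a GATA transcription factor, was at 4.23 and 3.23 against 7.55 and 10.4 FPKM (1.07, SE 0.18, limma adjusted p = 0.0122). Dusp9 kept its call under all 16 alternatives. Msx1 was not called without wild-type replicate 1 (1.21) or Trincr1-/- replicate 1 (1.13) in PD + LIF, and Gata2 without wild-type replicate 2 (0.92) or Trincr1-/- replicate 2 (0.86), with adjusted p from 0.00710 to 0.0801 and from 0.00938 to 0.0715 over 16 alternatives. Of the 6 genes named after their values were seen, Bmp5 kept its call with each sample left out, and Smad5 (0.37 to 0.60), Fst (0.63 to 0.77), Bmp1 (0.72 to 0.89), Bmp8b (0.52 to 0.94) and Nbl1 (0.55 to 0.86) lost theirs in at least 1 such fit. Bmp5 was listed at 0 in all 4 samples in 2i + LIF and was at 0.434 and 0.258 FPKM in wild type and 1.39 and 1.54 FPKM in Trincr1-/- ESCs in PD + LIF.

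In 2i + LIF, 1 of the 47 rose and 0 fell, against 0.350% of all genes called as higher and 0.855% as lower. That gene was Fstl1, a secreted follistatin-like glycoprotein, at 14.6 and 14.2 FPKM in wild type and at 25.4 and 22.9 FPKM in Trincr1-/- ESCs (log2 fold change 0.71, SE 0.07, limma adjusted p = 0.00809). It also rose in PD + LIF, from 18.3 and 17.0 to 28.5 and 28.2 FPKM (0.65, limma adjusted p = 0.00370). The call in 2i + LIF was lost without wild-type replicate 1 (0.73) or 2 (0.68) in that medium, with adjusted p from 0.00527 to 0.158 over 16 alternatives. The interaction passed for 1 of the 47 genes, Dusp9 (1.05, limma adjusted p = 0.0158), a share near the 1.81% of all genes called. With the change of medium, 19 of the 47 rose and 7 fell in wild type, and 23 rose and 4 fell in Trincr1-/- ESCs. Counted in either direction, these shares were near the 52.2% and 50.0% of all genes called. By direction, 30.9% of all genes were called as higher and 21.3% as lower in wild type. In Trincr1-/- ESCs these shares of all genes were 29.6% and 20.3%. In each genotype a larger share of the 47 rose, and a smaller share fell, than among all genes.

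**Figure D4:**
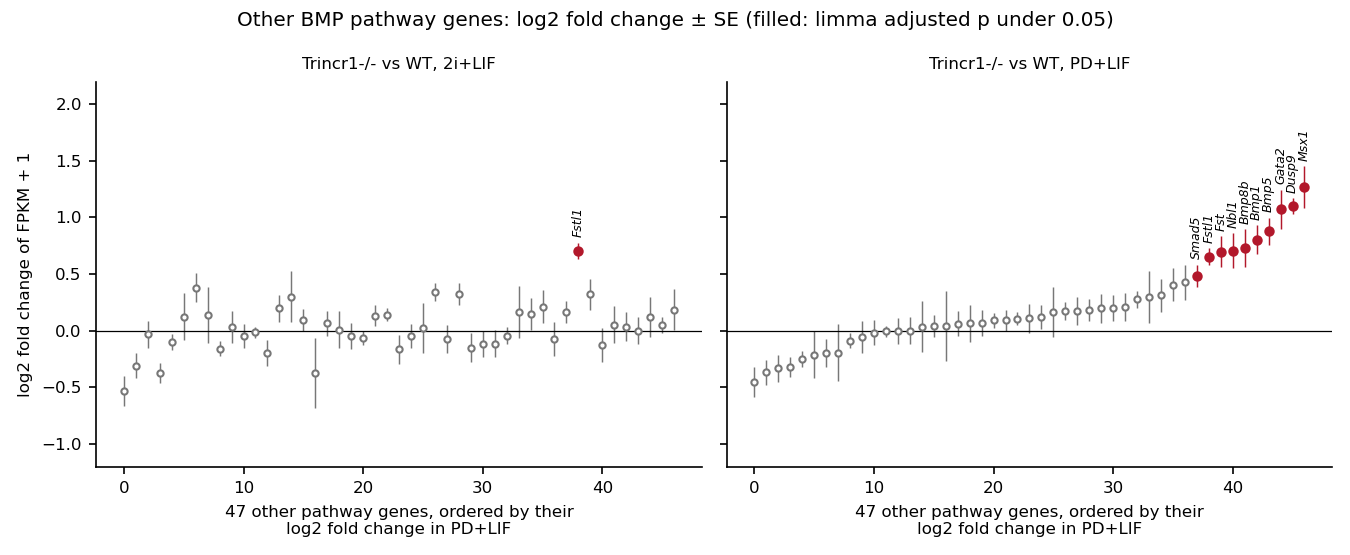
Log2 fold change of FPKM + 1 (y axis) ± SE in Trincr1-/- against wild-type ESCs for the 47 other pathway genes in 2i + LIF (left) and PD + LIF (right), both ordered by the value in PD + LIF (x axis, rank). Filled red points, with a limma adjusted p under 0.05, number 1 on the left (Fstl1) and 10 on the right, all above 0.

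For each member called in a pairwise comparison, the genes with the most similar pattern were sought among 12062 genes by the root mean square difference of mean-centred log2(FPKM + 1) over the 8 samples. The gene nearest to Id3 was Myc (0.120), with means of 8.98 (wild type) and 8.53 FPKM (Trincr1-/-) in 2i + LIF and of 3.78 and 9.63 FPKM in PD + LIF, followed by Slc39a14 (0.178). Nearest to Id1 were Wls (0.148), whose means were 3.87, 5.96, 11.4 and 20.9 FPKM in the same order, and Tgfb1i1 (0.156). Nearest to Id2 were Emp2 (0.218) and Fbxo2 (0.233). The genes closest to Bmp4 were Lrrn2 (0.0999) and Zfp428 (0.128), to Msx2 Tmem108 (0.0867), to Kcp Klhl13 (0.197) and Rac3 (0.249), and to Bmpr2 Cables2 (0.0390) and Mark3 (0.0399). On the same scale the members themselves spread by 0.172 (Bmpr2), 0.476 (Msx2), 0.540 (Id3), 0.636 (Kcp), 0.752 (Bmp4), 0.911 (Id1) and 0.977 (Id2). The distances therefore do not rank the matches of different members.

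The last data are from a pulldown of RNA with FLAG-tagged TRIM71, the RNA-binding protein that Trincr1 is named for, from UV-crosslinked ESCs overexpressing it in 2i + LIF. The deposited table gives 1 FPKM value per transcript in the immunoprecipitation (IP) and 1 in the input, so no value has an error or a test. The depth is unknown. Per the sample labels the input was prepared like the RNA-seq libraries, on poly-T beads, and the IP RNA went into cDNA directly, and reads on non-polyA transcripts were left out by the authors. All 10 members were listed. Their input levels were not those of wild type in 2i + LIF in the RNA-seq. Id3 was at 1.2 FPKM against a mean of 20.2, Bmp4 at 0.2 against 7.72 and Id1 at 0.7 against 3.47. Kcp alone was clearly higher in the input (1.2 against 0.384 FPKM), and Id2 was about equal (1.9 against 1.92 FPKM). The reason was not tested. Only Bmpr1a had an input above 2 FPKM, at 3.9 FPKM, with 0.8 FPKM in the IP after the scaling by the authors, a ratio of 0.205. Thus 0 of 10 passed an input above 2 FPKM with a ratio above 3, which 5.10% of the 9651 transcripts with such an input did.

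Of the 10, 7 were listed at 0 in the IP: Id2, Id3, Id4, Bmp4, Kcp, Smad6 and Msx2, with inputs from 0.2 to 1.9 FPKM. Bmpr2 had an input of 1.0 FPKM and a scaled IP of 0.9 FPKM. Id1 differed from these, with an input of 0.7 FPKM, 5.7 FPKM in the IP and 12.8 FPKM after scaling, a ratio of 18.3 that rounding of the deposited values allows to lie between 17.0 and 19.8. The ratio of Id1 was 8.14 without the scaling and 8.12 with 1 FPKM added to both values. Of 1405 transcripts with an input from 0.5 to 1 FPKM, 90.1% were at 0 in the IP and 5.84% had a ratio above 3. In that window 22 transcripts, Id1 itself included, had a ratio at or above that of Id1. Immunoprecipitation from empty-vector cells was not used here.

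The 10 genes lie on GRCm38 at 14:46383520-46390669 (Bmp4), 6:29473162-29507952 (Kcp), 14:34410734-34503341 (Bmpr1a), 1:59763400-59879014 (Bmpr2), 9:63953076-64022059 (Smad6), 2:152736251-152737410 (Id1), 12:25093801-25096092 (Id2), 4:136143497-136145755 (Id3), 13:48261427-48264036 (Id4) and 13:53466884-53473074 (Msx2). Strand of the libraries was not stated, so reads of overlapping entries cannot be told apart. Bmp4 overlaps the antisense Gm15222 (0 to 0.656 FPKM) and the entry Gm15217 (0 FPKM), Bmpr1a the antisense Gm17110 (0 to 0.396 FPKM), and Id4 the entry A330033J07Rik (0 to 0.0536 FPKM). Kcp overlaps Gm26484, Gm9047 (0 to 0.154 FPKM) and Gm26627 (0 to 0.176 FPKM).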

How the data were processed

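Poly(A) RNA-seq of 8 ESC samples and a TRIM71 pulldown with its input were analysed. Per the labels, reads were aligned with STAR 2.5.0 and quantified with Cufflinks 2.2.1, and the authors deposited normalized FPKM values per gene and sample, and for the pulldown 1 FPKM value per transcript in IP and input, with a second pair of signal values, FPKM that the authors scaled. The deposited fold of enrichment, which is the authors' own comparison, was not used. The build named in the labels is mm9, whereas the gene coordinates are those of GRCm38.

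The table had 41260 entries. For 39 identifiers with more than 1 entry the one with the highest mean was kept, which left 41204, and 27 symbols were restored from the identifier. Log2(FPKM + 1) of the 15430 genes with a mean above 0.2 FPKM was fitted with limma 3.58.1 in R 4.3.3, with 4 groups in 1 model and a variance trend, and p-values were adjusted by Benjamini-Hochberg over all of these genes with a threshold of 0.05. The fit was tested on simulated data. Depth was estimated from the steps between FPKM values of single-exon genes. Tables were handled in Python 3.11.15 with pandas 2.3.3 and numpy 2.4.6, and plots drawn with matplotlib 3.10.9.

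All 10 genes were named. Of the other pathway genes, those past the threshold in a comparison of genotype were named by rule, up to 3 per direction by size of change, with the 2 nearest patterns of each member called, of which 1 is not reported here. The members, lists and rules were chosen with earlier results of these data known. Alternatives covered the pseudocount, filter, normalization, variance model, replicate block and samples fitted. Immunoprecipitation from empty-vector cells was not analysed.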

Additional observations from a re-analysis of the deposited data

Results flagged for a closer look

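The effect of genotype differed between the media for 2 of the 10 genes, by a test of the difference itself in limma. For Id2 the effect in PD + LIF minus that in 2i + LIF was 1.58 on the log2 scale (SE 0.28, limma adjusted p = 0.0456): both Trincr1-/- samples were above both wild-type samples in PD + LIF and below both in 2i + LIF. Only 3 of 15 alternatives kept this call, with adjusted p from 0.0344 to 0.158. For Id3 the difference was 1.46 (SE 0.16, limma adjusted p = 0.0200): both Trincr1-/- samples were above both wild-type samples in PD + LIF, and the genotypes overlapped in 2i + LIF. Of 15 alternatives, 9 kept it, with adjusted p from 0.0128 to 0.102.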

How the results depend on the processing

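For the 10 genes in 5 comparisons, 50 results were recomputed under 785 alternatives, of which 708 kept both direction and side of the threshold or stayed uncalled, 68 lost a call and 9 gained one; a called value changed sign in 0. The 708 include alternatives of results that were not called in the first place, so they overstate how often a call was kept. With only the 4 samples compared in the fit, 0 of 10 genes passed limma in 2i + LIF (4 at an unadjusted p under 0.05), in place of 1. In PD + LIF 1 passed (6 at an unadjusted p under 0.05 in limma), in place of 6. With a filter at a mean of at least 1 FPKM, 3 genes were called for the change of medium in Trincr1-/- ESCs in place of 5: Msx2 was not tested and Bmpr2 did not pass. The interaction was called for 1 gene in place of 2 with a pseudocount of 0.1, with no filter and with no variance trend. With each sample left out in turn, members called ranged from 0 to 1 in 2i + LIF, from 1 to 6 in PD + LIF and from 0 to 1 for the interaction, where fits without a call had 4 to 7 genes at an unadjusted p under 0.05. The cause of these losses was not tested.

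Among all genes, calls in 2i + LIF were 186, 122 with no filter, 111 with the replicate block, 0 with only the 4 samples compared (2106 at an unadjusted p under 0.05 in limma) and 40 to 113 with a sample left out. Calls in PD + LIF were 1861, 316 with only the 4 samples compared and 335 to 1519 with a sample left out. Calls for the interaction were 279, 138 with no filter, 88 with no variance trend, 39 with the replicate block and 3 to 34 with a sample left out. Quantile normalization moved the median log2 fold change of all genes with the medium from 0.08 to -0.02 in wild type and from 0.07 to -0.03 in Trincr1-/- ESCs.

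A pseudocount of 0.1 made the log2 fold changes of low genes larger, as for Kcp in 2i + LIF (2.44 in place of 1.34) and Msx2 in PD + LIF (1.51 in place of 0.86), both still called.

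Same-numbered samples of the groups showed little shared deviation: correlations of their deviations ranged from -0.0595 to 0.0196 over 12063 genes. A pairing limited to some genes was not tested. With the replicate block, members called were 1 and 5 for genotype in 2i + LIF and PD + LIF, 5 and 4 for medium in wild type and Trincr1-/- ESCs, and 1 for the interaction. Depth limits Id2 and Msx2 most, and the pulldown values have no replicate.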
